A study of Mus musculus with 18 samples.

Results

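The 8 genes described here are those of the neural crest and of the Schwann cell, the crest-derived glial cell that myelinates peripheral nerves. They were followed in 18 Illumina MouseWG-6 v2 arrays of mouse ESD3 cells, an embryonic stem cell line of strain 129s2/SvPas grown on mouse embryo fibroblast feeder cells. Control cells carried an shRNA against luciferase and HPRT knockdown cells an shRNA against HPRT, the purine salvage enzyme that is lost in Lesch Nyhan Disease, each delivered by viral transduction. Both were measured as embryonic stem (ES) cells, as spherical neural masses (SNM), and at the final neuronal stage of a dopaminergic differentiation protocol. Each of the 6 conditions was measured on 3 arrays of 1 pooled RNA, so errors and p-values below cover the spread between arrays of the same pool and not that between cultures. The shRNA was designed to the human HPRT sequence, and transduced cells were selected with puromycin. Hprt1, the targeted gene, was lower in the knockdown at each stage, by 17-fold in ES cells, 3.39-fold in SNM and 21.8-fold at the neuronal stage on its brightest probe, with no overlap between arrays.

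The probes of the members were taken by gene symbol, and the members themselves were chosen with earlier results of these data known. Of 45281 probes with 30869 symbols, 9 probes carried the symbol of 6 members. Tfap2a and Tfap2b are listed on the array under the older symbols Tcfap2a and Tcfap2b, and were found through their gene identifiers, which brought the set to 19 probes of 8 genes. Tfap2b has 6 probes, Tfap2a has 4, Ngfr has 3, Pmp22 has 2, and Foxd3, Egr2, Erbb3 and Pou3f1 have 1 each. Pmp22 and Ngfr lie on mouse chromosome 11, Egr2 and Erbb3 on chromosome 10, Foxd3 and Pou3f1 on chromosome 4, Tfap2a on chromosome 13 and Tfap2b on chromosome 1. Where a gene has several probes, the brightest over all arrays stands for it.

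The neural crest forms at the border of the neural plate and the surface ectoderm, where the AP-2 transcription factors encoded by Tfap2a and Tfap2b help to induce it and Foxd3, a forkhead repressor, maintains it as a multipotent population. Crest cells that become glia carry the neurotrophin receptor encoded by Ngfr and the neuregulin receptor encoded by Erbb3, through which axons keep Schwann cell precursors alive. Pou3f1 (also called Oct6 or SCIP) and Egr2 (also called Krox20) then act in sequence to start myelination, and Pmp22 encodes a membrane protein of compact peripheral myelin. None of these genes is restricted to that lineage: Pou3f1 is expressed in neural progenitors, Egr2 in hindbrain segments and after growth factor stimulation, and Pmp22 in many fibroblasts and epithelia.

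Levels are given as log2 normalized signal, background-corrected and quantile-normalized, and differences as log2 fold changes with the standard error (SE) of the fit. A probe counted as detected on an array at a detection p-value under 0.05, and was tested where all 3 arrays of a condition compared detected it. It was called where the adjusted p-value of limma was under 0.05 and the change reached 1.5-fold. A level of 1 probe is not set against that of another, since probes differ in brightness.

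Of the 8 genes, 6 were detected on all arrays of at least 1 condition. HPRT knockdown cells at the SNM stage had lower signals of 4 of them, Tfap2b, Egr2, Pou3f1 and Tfap2a, by between 1.54-fold and 5.31-fold, and of the 6 tested none was called higher. Over all 20765 probes tested at that stage, 11% were called higher and 8.9% lower. At the neuronal stage Tfap2b stayed lower and Ngfr was lower, whereas Tfap2a was higher, while 13.9% of all probes tested were called higher and 13.5% lower. In ES cells only Pmp22 of the 5 genes tested was called, and it was lower, where 0.516% of all probes were called higher and 1.17% lower. The counts of the gene lists below stand against these same shares. In these bulk samples fewer cells of a type and less RNA per cell cannot be told apart.

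**Figure D1:**
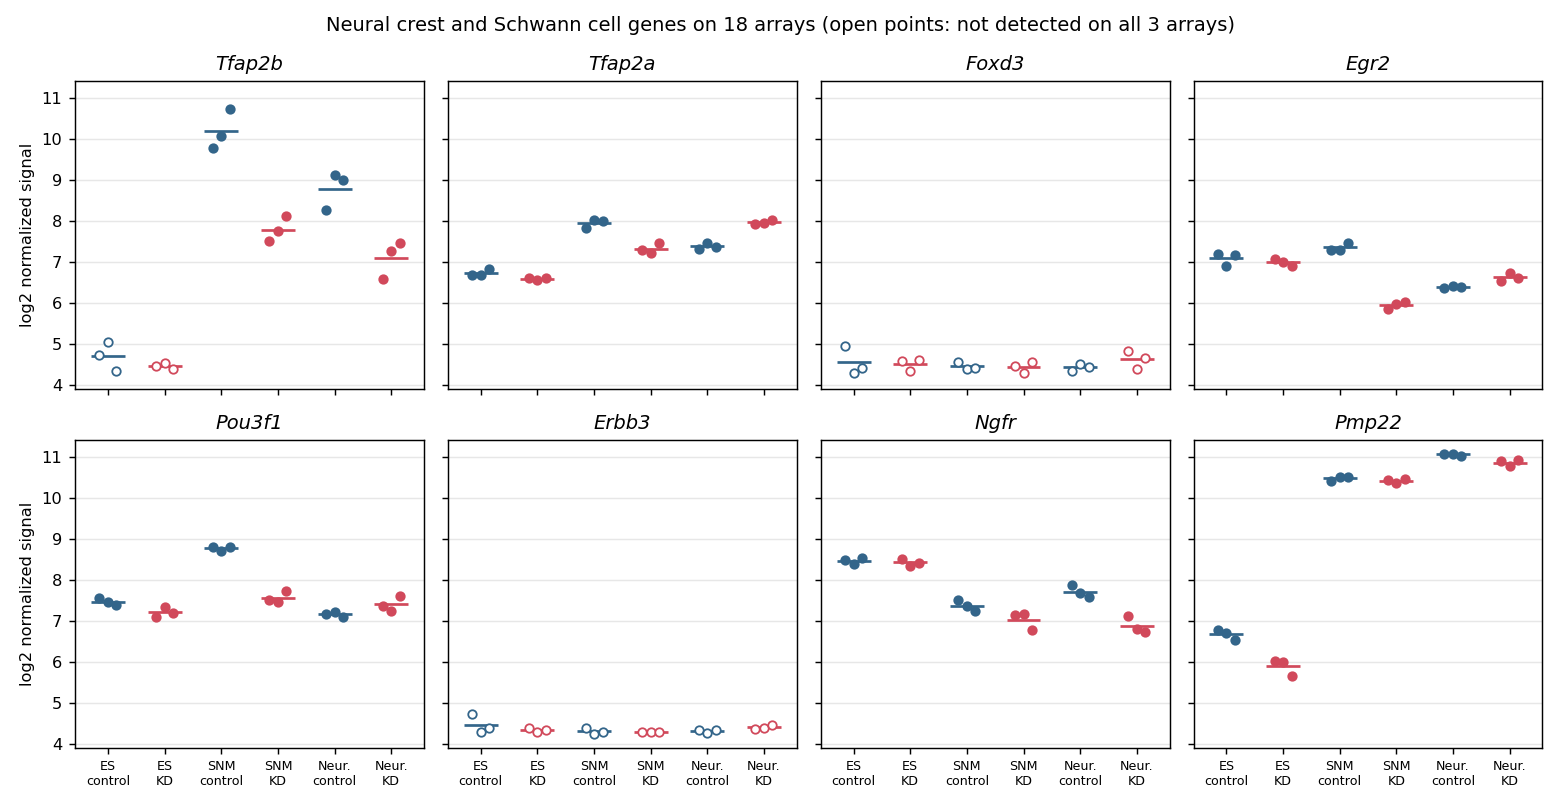
Log2 normalized signal of the brightest probe of each gene (vertical axis, same scale in all panels) on the 3 arrays of each of 6 conditions, control in blue and HPRT knockdown (KD) in red, with a line at the mean; Neur. is the neuronal stage, and open points mark conditions in which not all 3 arrays detected the probe. Tfap2b, Egr2, Pou3f1 and Tfap2a lie lower in knockdown than in control arrays at the SNM stage, and Foxd3 and Erbb3 stay between means of 4.28 and 4.62.

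Tfap2b was the member with the widest range across the stages. In control cells its brightest probe read 4.72, 5.04 and 4.33 on the ES arrays, of which 1 of 3 detected it, then 9.78, 10.07 and 10.73 in SNM and 8.26, 9.11 and 8.99 at the neuronal stage. In knockdown cells the same probe read 4.47, 4.53 and 4.40 in ES cells, with no array detecting it, then 7.50, 7.76 and 8.11 in SNM and 6.58, 7.27 and 7.47 at the neuronal stage. The 2 sets of arrays did not overlap in SNM or at the neuronal stage. The knockdown was lower by 5.31-fold in SNM (log2 fold change -2.41, SE 0.28, limma adjusted p = 2.76e-06) and by 3.21-fold at the neuronal stage (-1.68, SE 0.28, adjusted p = 8e-05). Tfap2b rose between ES and SNM in both cell types, by 5.50 on the log2 scale in control cells, whose ES arrays mostly did not detect it, and by at least 7.23-fold in knockdown cells. It then fell toward the neuronal stage in both, by 1.41 in control cells (adjusted p = 0.000395) and by 0.68 in knockdown cells (adjusted p = 0.0465). The latter call was lost without knockdown SNM replicate 2 or 3 or knockdown neuronal replicate 1 or 2, whereas 2 other probes fell by 1.22 and 1.18 in that step.

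All 6 probes of Tfap2b were called lower in knockdown SNM, with log2 fold changes between -0.68 and -2.41. The 4 probes tested at the neuronal stage were all called lower there too, between -1.52 and -1.96. The remaining pair was dim: 1 reached a mean of 5.57 in control SNM and the other 5.15, and for the latter, undetected in knockdown SNM, the difference is given as at least 1.38-fold. The probes differed in how closely their arrays agreed. Probe ILMN_2502039 read 9.38, 9.36 and 9.38 in control SNM against 7.33, 7.37 and 7.52 in knockdown SNM, whereas the brightest probe, ILMN_1223731, had an SD of 0.48 (n = 3) in control SNM. The fall in SNM was 3.91-fold on the former (adjusted p = 4.32e-12).

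The window before the annotated start of Tfap2b is shown because this gene had the largest difference among the members. It is given in lower case with any match to the AP-2 motif in capitals, from RefSeq on build GRCm38.p6, at chr1:19211804-19212053 on the plus strand.
Tfap2b: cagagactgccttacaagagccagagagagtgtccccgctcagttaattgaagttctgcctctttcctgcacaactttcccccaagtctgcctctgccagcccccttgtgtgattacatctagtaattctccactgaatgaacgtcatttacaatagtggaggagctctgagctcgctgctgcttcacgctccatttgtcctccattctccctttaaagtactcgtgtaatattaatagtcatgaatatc
The motif searched was GCCNNNGGC, which reads the same on both strands, and this window holds no match.

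Tfap2a, the other AP-2 member, was the only gene of the set with called differences in opposite directions at 2 stages. Its brightest probe read 7.83, 8.02 and 8.0 in control SNM and 7.29, 7.22 and 7.46 in knockdown SNM. At the neuronal stage the order was turned, with 7.32, 7.46 and 7.36 in control and 7.92, 7.96 and 8.02 in knockdown arrays. The arrays did not overlap at either stage. The differences were small, 1.54-fold lower in SNM (log2 fold change -0.62, SE 0.07, adjusted p = 2.37e-06) and 1.5-fold higher at the neuronal stage (0.59, SE 0.07, adjusted p = 2.87e-06), and both lie close to the limit of 1.5-fold. The knockdown effect differed between these stages by 1.21 (SE 0.10, adjusted p = 5.83e-08).

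In ES cells Tfap2a read 6.67, 6.68 and 6.83 in control and 6.61, 6.56 and 6.61 in knockdown arrays, a difference of -0.13 that did not pass the test (adjusted p = 0.268). It rose from ES to SNM by 1.22 in control cells and by 0.73 in knockdown cells. A second probe, ILMN_2913031, was also detected on all arrays and moved the same way in SNM, by -0.52 (adjusted p = 0.00595), under the 1.5-fold limit. At the neuronal stage it differed by 0.15 (adjusted p = 0.38), so the higher level in the knockdown rests on the brightest probe alone. The SNM call was lost without knockdown SNM replicate 2 (-0.57), and that at the neuronal stage without control replicate 1 (0.56), control replicate 3 (0.58) or knockdown replicate 3 (0.56). Both were also lost under other normalizations, between -0.50 and -0.53 in SNM and between 0.47 and 0.50 at the neuronal stage, so neither reaches 1.5-fold in all settings. Of the 2 remaining probes, 1 was detected on no array and the other on 1 of 18.

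**Figure D2:**
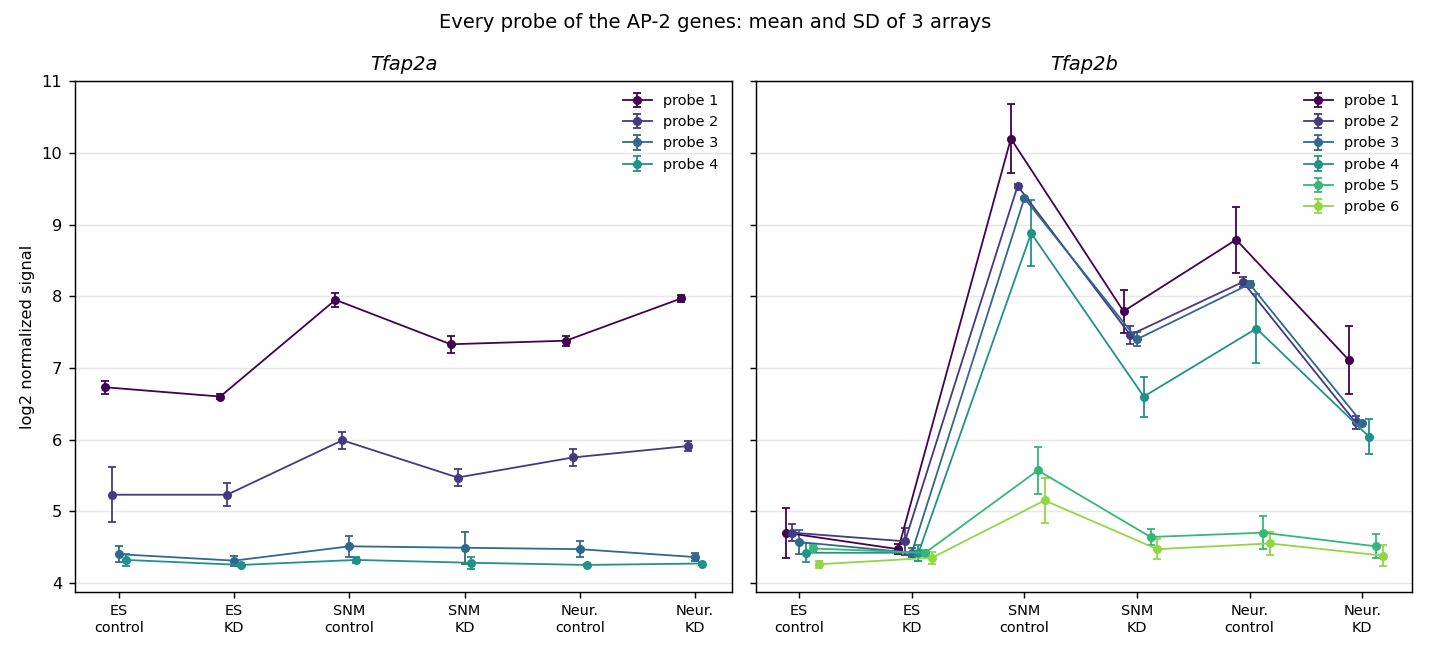
Mean log2 normalized signal (vertical axis) with the SD of 3 arrays as bars for every probe of Tfap2a (4 probes, left) and Tfap2b (6 probes, right) in the 6 conditions, with probes numbered by brightness, KD for knockdown and Neur. for the neuronal stage. All 6 Tfap2b probes peak in control SNM, whereas the difference of Tfap2a at the neuronal stage appears on the brightest probe.

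Foxd3 was near background throughout. Its single probe was detected on 2 of 18 arrays, 1 of control ES cells and 1 of the knockdown at the neuronal stage, and its condition means lay between 4.43 and 4.62. The probe was tested in no comparison, and a difference could not be seen at this signal. The order of the 6 means carries no information, since the arrays of every neighbouring pair overlapped.

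Among the other AP-2 genes, partners and inhibitors, 7 were on the array. At SNM 2 of 6 tested were lower and none higher. Tfap2d, an AP-2 gene that was undetected in knockdown SNM, was at least 1.57-fold lower, and Cited4, a coactivator of AP-2, changed by -0.59. At the later stage 3 of the 5 tested were lower, among them Tfap2c (-2.09) and Cited2 (-0.77), a further AP-2 coactivator. Their median log2 fold changes, -0.14 and -0.72, compare with -0.04 and 0.01 over all probes tested. In the POU class 3 and FoxD families, from which Pou3f1 and Foxd3 come, 2 of 5 were higher in knockdown SNM, Foxd4 (2.06) and Foxd1 (0.85), and Pou3f4 was lower (-1.12). At the neuronal stage none of 4 was higher and 2 were lower, Pou3f4 (-1.13) and Foxd4 (at least 1.29-fold lower).

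Pou3f1 encodes the POU factor of the promyelinating Schwann cell. It read 8.79, 8.70 and 8.80 in control SNM and 7.50, 7.45 and 7.72 in knockdown SNM, without overlap. This was 2.30-fold lower in the knockdown (log2 fold change -1.20, SE 0.09, adjusted p = 3.01e-08). Control SNM stood above all other conditions. In ES cells the values were 7.54, 7.46 and 7.38 in control and 7.08, 7.32 and 7.19 in knockdown arrays, and the difference of -0.27 did not pass the test (adjusted p = 0.0803). Neuronal-stage values were 7.17, 7.22 and 7.08 against 7.36, 7.24 and 7.60, a difference of 0.24 under the fold limit (adjusted p = 0.0342). In control cells Pou3f1 rose from ES to SNM by 1.30 and fell by 1.61 to the neuronal stage. The same steps in knockdown cells were 0.36 and -0.16, neither of which was called.

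Egr2 encodes the zinc finger factor that activates myelin genes. In SNM it read 7.30, 7.30 and 7.47 in control and 5.86, 5.97 and 6.02 in knockdown arrays, which is 2.65-fold lower in the knockdown (log2 fold change -1.41, SE 0.08, adjusted p = 1.32e-09). Knockdown SNM was the lowest of the 6 conditions. The ES arrays overlapped, at 7.20, 6.90 and 7.17 in control and 7.08, 6.99 and 6.91 in knockdown arrays (-0.10, adjusted p = 0.51). In the neuronal-stage arrays Egr2 read 6.36, 6.42 and 6.38 in control and 6.54, 6.74 and 6.61 in knockdown arrays, a difference of 0.24 that passed the adjusted p (0.0196) but not the fold limit. In control cells the step from ES to SNM, 0.26, was not called, and Egr2 fell by 0.97 to the neuronal stage. Knockdown cells fell by 1.05 from ES to SNM and rose by 0.68 from SNM to the neuronal stage, so the steps ran in opposite directions in both kinds of cells.

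Of the Egr family, the Nab corepressors that bind Egr proteins and related early genes, none of 7 tested was called in knockdown SNM in either direction, and their median of -0.08 lay near that of all probes. In neuronal-stage cells 1 of 6 was called, Fos, an immediate early gene, which was higher by 3.59. Egr1, another member of the family, changed by -0.30 in SNM and by 0.53 at the neuronal stage, both under the fold limit. Nab1 and Nab2 changed by -0.08 and 0.09 in SNM. Hindbrain markers were read beside Egr2, which hindbrain segments express. Of 8 on the array, 1 of 5 tested was lower in knockdown SNM, Gbx2 (-2.28), which is also a neural crest factor, and 2 of 6 at the neuronal stage. The median of the hindbrain markers tested in SNM was -0.03, against -0.04 over all probes. Their summed normalized signal was 1330 to 1430 in control and 525 to 557 in knockdown SNM, a difference that lies mostly in Gbx2, with means of 10.01 and 7.73 on the log2 scale. Hoxa2, Hoxb2 and Epha4 differed by -0.16, 0.01 and -0.03 in SNM, none of them called. Their part in the Egr2 result was not tested.

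The first of the Egr2 start sites in RefSeq and the third of those of Pmp22 are shown because their windows hold the AP-2 letters, in capitals, and because Egr2 fell with the AP-2 genes in knockdown SNM while Pmp22 did not. Both are on the plus strand of GRCm38.p6, at chr10:67535249-67535498 and chr11:63132319-63132568.
Egr2: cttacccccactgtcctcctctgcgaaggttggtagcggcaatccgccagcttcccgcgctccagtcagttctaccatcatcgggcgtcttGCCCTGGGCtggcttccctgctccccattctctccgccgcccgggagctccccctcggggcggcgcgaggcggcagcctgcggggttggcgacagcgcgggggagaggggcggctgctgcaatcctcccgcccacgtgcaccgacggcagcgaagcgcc
Pmp22: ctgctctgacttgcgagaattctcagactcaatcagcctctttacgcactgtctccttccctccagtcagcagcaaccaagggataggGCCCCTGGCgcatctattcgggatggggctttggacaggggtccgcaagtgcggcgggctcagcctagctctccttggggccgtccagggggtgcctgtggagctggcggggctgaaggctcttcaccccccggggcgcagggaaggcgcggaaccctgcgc
The match begins at position -159 in Egr2 and at -162 in Pmp22, counted from the annotated start. RefSeq gave 14 windows of 250 bases before the start for 6 of the members, and 3 of them held the AP-2 letters, 1 of Egr2 and 2 overlapping ones of Pmp22. Among all 32851 such windows 13.7% held them. The GC box GGGCGG, searched on both strands, was in 7 of the 14 and in 32.7% of all windows, and the Egr2 window above holds 4. No member window held the Egr letters GCGNGGGCG on either strand, which 4.70% of all windows held. These are matches of letters only. They do not show that a factor binds there.

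Ngfr encodes the low-affinity neurotrophin receptor, and was the only member with a called fall from ES cells to SNM in both kinds of cells, by 1.10 in control and by 1.40 in knockdown cells. The probe that detected it read 8.48, 8.37 and 8.52 in control and 8.51, 8.34 and 8.41 in knockdown ES cells. SNM arrays read 7.49, 7.35 and 7.23 in control and 7.14, 7.16 and 6.76 in the knockdown. These did not overlap, but the difference of -0.33 stayed under the fold limit (adjusted p = 0.0278). Neuronal-stage control arrays read 7.86, 7.68 and 7.57 and knockdown arrays 7.11, 6.79 and 6.71, which is 1.78-fold lower in the knockdown (log2 fold change -0.83, SE 0.12, adjusted p = 1.78e-05). The difference in the knockdown effect between the neuronal stage and SNM, -0.50, was under the fold limit (adjusted p = 0.024). The other 2 Ngfr probes were detected on no array and say nothing of the change.

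Of 14 neurotrophin and receptor genes, 3 of 10 tested were higher and 1 lower in knockdown SNM, with a median of 0.43, or 0.30 with undetected groups at their bound. Ntrk2, the receptor of BDNF, was higher by 1.58 and Maged1, a partner of the Ngfr protein, by 0.78, and Bdnf was lower (-0.74). In the neuronal-stage arrays 2 of 11 were higher, Ntrk3 (1.02) and Bdnf (0.61), and 2 lower, Bex1 (-0.76) and Ntf3 (-0.69). All probes tested gave 11% higher and 8.9% lower in SNM, and 13.9% and 13.5% at the neuronal stage.

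Erbb3 was detected on 0 of 18 arrays, and its condition means lay between 4.28 and 4.45, all within the background. Its partner Erbb2 was detected on all arrays, with means between 5.15 and 6.77, and was called at no stage between knockdown and control. In the neuregulin and ErbB list, 1 of 9 tested was higher in knockdown SNM, Egfr (1.20), and 2 were lower, Nrg1 (-1.41) and Areg (-1.01). Nrg1 encodes the axonal ligand of Schwann cell precursors. In neuronal-stage cells 3 of 10 were higher, with Hbegf (1.85) and Nrg1 (1.23) the largest, and 3 lower, among them Nrg3 (at least 1.88-fold lower) and Egfr (-0.92). Nrg1 and Egfr were thus each called in opposite directions at the 2 stages. Of all probes tested, 11% were called higher and 8.9% lower in SNM, and 13.9% and 13.5% at the neuronal stage.

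Pmp22 rose strongly from ES cells to SNM in both kinds of cells. Control arrays read 6.77, 6.69 and 6.52 in ES cells, 10.40, 10.50 and 10.51 in SNM and 11.07, 11.07 and 11.02 at the neuronal stage. Knockdown arrays read 6.01, 5.98 and 5.66, then 10.43, 10.36 and 10.45, then 10.88, 10.76 and 10.92. The rise from ES to SNM was 14.1-fold in control and 23-fold in knockdown cells. The ES arrays did not overlap, and knockdown ES cells were 1.70-fold lower (log2 fold change -0.77, SE 0.08, adjusted p = 4.34e-05). The call in ES cells was lost under quantile normalization without background correction (-0.47), 75th percentile scaling (-0.43) and an offset of 50 (-0.53). In SNM the arrays overlapped (-0.06, adjusted p = 0.608), and at the neuronal stage the difference of -0.20 did not pass the test (adjusted p = 0.0552). The second Pmp22 probe was dim in ES cells, where 1 control array and no knockdown array detected it, and so could not test that difference. It read between 7.12 and 7.89 as condition means at the later stages and was called between knockdown and control at neither. In knockdown cells this second probe was called rising from SNM to the neuronal stage, by 0.77 (adjusted p = 2.32e-05). The brightest probe rose by 0.44 in that step, under the fold limit.

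The list of Pmp22 relatives holds 6 genes of small membrane proteins. At SNM 2 of 4 tested were higher in the knockdown and none lower, Emp2 by 2.11 and Tmem47 by 1.56. In neuronal-stage cells 1 of 5 was higher, Tmem47 (0.90). Of all probes tested, 11% were called higher in SNM and 13.9% at the neuronal stage. Fibroblast and mesenchyme markers, which were read because fibroblasts express Pmp22 and served as feeders, were called higher in knockdown SNM for 6 of 12 and lower for none, and at the neuronal stage 9 of 12 were lower. Their summed signal was 2060 to 2150 in control and 1750 to 1920 in knockdown ES cells, 11000 to 11700 and 17300 to 18300 in SNM, and 27700 to 31500 and 19000 to 22400 at the neuronal stage. In ES cells, where Pmp22 was called, 1 of 6 tested was lower in the knockdown, Fbln2 (-0.95), and none higher, with a median of -0.45 against 0.01 over all probes. Dcn (-0.57), Col3a1 (-0.54), Thy1 (-0.36) and Pdgfra (-0.30) passed the adjusted p there but not the fold limit, and Col1a1, Lum and Postn were undetected in both kinds of cells. The Pmp22 difference there was -0.77, of the same sign, and the part of these cells in the Pmp22 result was not tested.

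**Figure D3:**
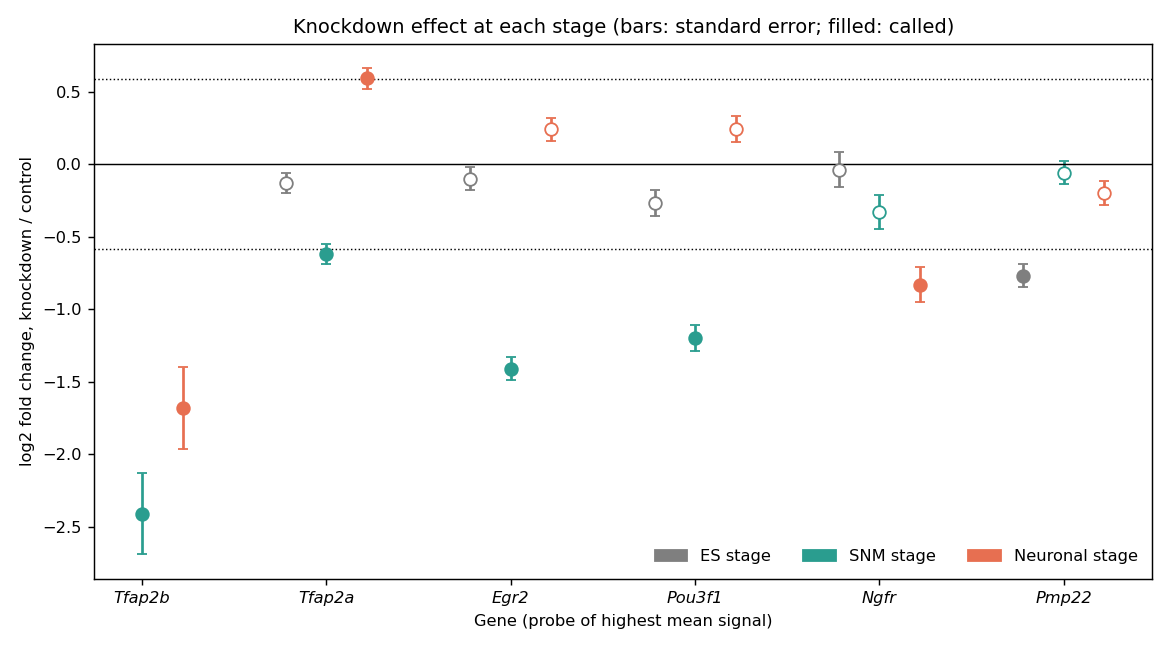
Log2 fold change of HPRT knockdown over control (vertical axis) for the 6 members tested, by stage, with the standard error of the limma fit as bars; filled points were called, open points were tested and not called, and dotted lines mark 1.5-fold. The SNM points of Tfap2b, Egr2, Pou3f1 and Tfap2a lie below the lower line, and at the neuronal stage the points of Tfap2a, Egr2 and Pou3f1 lie above 0.

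Read along the stages, the members did not move as a block. From ES to SNM, 4 of 6 tested rose and 1 fell in control cells, against 23.7% of all probes rising and 25.4% falling. Knockdown cells had 3 rises and 2 falls in that step, with 26.4% and 30.9% of all probes. From SNM to the neuronal stage none rose and 3 fell in control cells (Tfap2b, Egr2 and Pou3f1), where 14.3% of all probes rose and 15.1% fell. In knockdown cells 2 rose (Tfap2a and Egr2) and 1 fell (Tfap2b), with 13.8% and 14.8% of all probes. The 3 calls of this step lay close to the fold limit, and none was left under quantile normalization without background correction, 75th percentile scaling or an offset of 50.

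The test of the difference in knockdown effect between SNM and ES cells called 4 of the 6 members tested. The effect was more negative in SNM for Egr2 (-1.31, adjusted p = 3.72e-07), Pou3f1 (-0.94, adjusted p = 3.96e-05) and Tfap2b (-2.18, adjusted p = 0.000401). For Pmp22 (0.71, adjusted p = 0.000205) it was less negative, at -0.77 in ES cells and -0.06 in SNM. The second Pmp22 probe, dim in ES cells, gave -0.07 (adjusted p = 0.771), so the Pmp22 call rests on the brightest probe alone. Tfap2b was not tested in ES cells, where 1 control array and no knockdown array detected its brightest probe. Its value here thus rests on the SNM difference of -2.41, with no measured effect in ES cells to set against it. Of all probes, 11.7% were called in the upward and 9.61% in the downward direction. Between the neuronal stage and SNM, Egr2 (1.65, adjusted p = 8.56e-09) and Pou3f1 (1.45, adjusted p = 1.68e-07) moved upward along with Tfap2a, where 13.7% of all probes moved up and 14.8% down. For Tfap2b that difference was 0.73 (adjusted p = 0.148) on its brightest probe, with 0.12 and 0.03 on the probes of closest arrays. The 3 remaining probes gave 0.74 (adjusted p = 0.00576, called), 0.76 (adjusted p = 0.0694) and 0.51 (adjusted p = 0.0322, under the fold limit). Without knockdown neuronal replicate 1 the calls of this difference went from 3 to 5, with Tfap2b and Ngfr added. Both comparisons use the SNM arrays, so they are not independent.

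The 22 neural crest factors on the array were called in both directions. In knockdown SNM 4 of 19 tested were higher and 4 lower, against 11% and 8.9% of all probes. Their median was 0.17, or 0.13 with undetected groups at their bound. Gbx2 (-2.28) and Sox10 (-1.75), the factor that specifies crest glia and also oligodendrocytes, fell furthest, and Msx1 (1.48) and Ednrb (0.90), the endothelin receptor of crest cells, rose furthest. Pax3, another crest factor, was detected in control SNM and on no array of knockdown SNM, and was at least 1.46-fold lower. In neuronal-stage cells 7 of 17 were higher and 6 lower, against 13.9% and 13.5% of all probes. Sox10 (5.85) and its relative Sox8 (2.36) led the higher ones, and Tfap2c (-2.09) and Zic1 (-1.58) the lower ones. Pax7, Msx2 and Mycn were tested in no comparison. In ES cells 2 of 11 were lower, Sox9 (-0.89) and Ednrb (-0.66).

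Of the Schwann cell and peripheral myelin list, 26 genes were on the array. In knockdown SNM 5 of 21 tested were higher, with Gfap (1.75) and Gpr126 (1.71), a receptor needed for Schwann cell myelination, foremost, and 6 were lower, with Mag (-2.21) and Mbp (-1.88) foremost. In neuronal-stage cells 14 of 22 were higher, with a median of 1.43 (1.37 with undetected groups at their bound), and 1 was lower, Art3 (-1.49). Mag (6.57) and Mbp (5.93) rose furthest, and both encode myelin proteins that oligodendrocytes share with Schwann cells. Gpr126 (2.51), Dhh (2.06) and Cdh19 (at least 1.89-fold) were also called higher at that stage. Cldn19, a claudin of Schwann cells, was detected on no array, and Gjb1, a connexin of peripheral myelin, on 1 of 18. Drp2, a Schwann cell dystroglycan partner, was 1.47 higher in SNM and -0.18 at the neuronal stage. Itga6 and Dag1 were called at neither stage.

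Oligodendrocyte markers moved beside this list. In SNM 9 of 13 tested were lower in the knockdown and none higher, and at the neuronal stage all 14 were higher, with a median of 5.15. Their summed signal was 18700 to 19400 in control and 12500 to 13300 in knockdown SNM, and 10900 to 11100 against 99200 to 104000 at the neuronal stage. Mag, Mbp, Cnp and Sox10 stand on this list and on one of those above. Skeletal muscle markers were the other large difference at the neuronal stage, where 10 of 10 were lower and their summed signal was 86200 to 87200 in control and 572 to 797 in knockdown arrays. Ckm and Myog were undetected in the latter. The part of either cell type in the values of Tfap2a, Tfap2b and Ngfr was not tested.

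**Figure D4:**
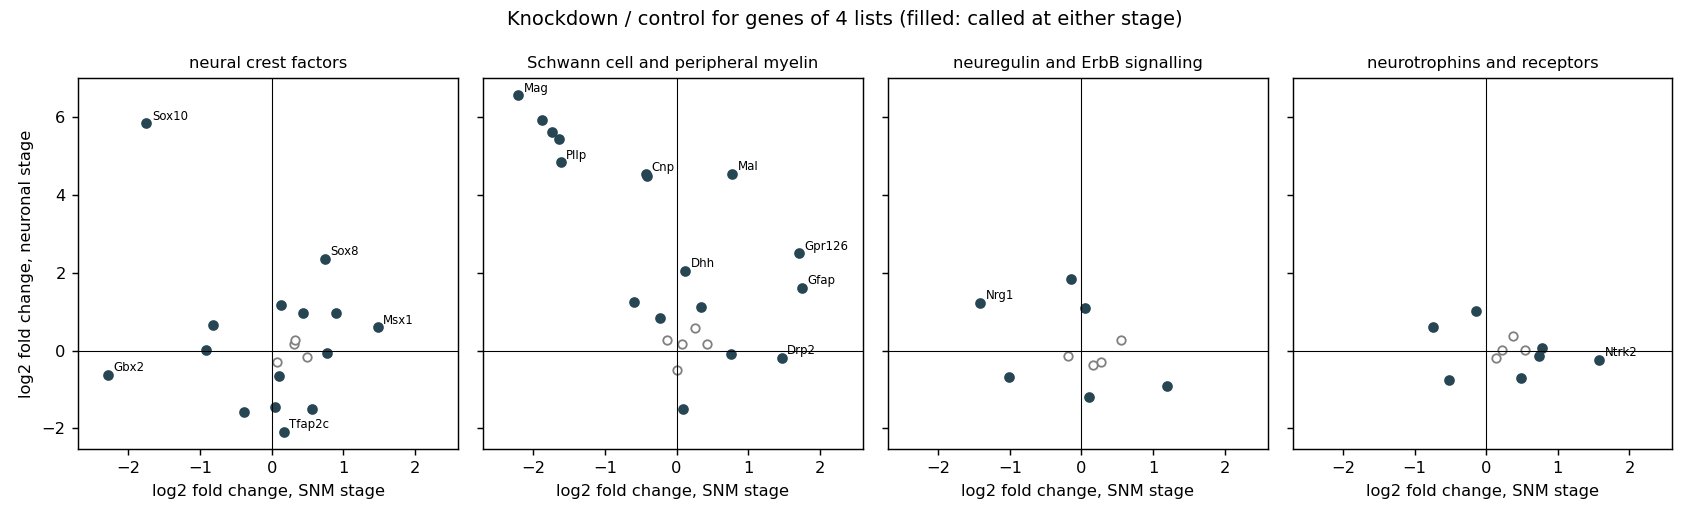
Log2 fold change of knockdown over control at the SNM stage (horizontal axis) and at the neuronal stage (vertical axis) for genes of 4 lists, each point a gene tested at either stage, filled where called at either. Genes of myelin such as Mag and Pllp and the factor Sox10 lie at the upper left, with a fall in SNM and a rise at the neuronal stage, and most genes of the neuregulin and neurotrophin lists lie within 2 log2 units of 0.

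Markers of other crest derivatives were read as well. The shares over all probes were 11% higher and 8.9% lower in SNM, and 13.9% and 13.5% at the neuronal stage. Of 9 melanocyte markers, Tyr, Tyrp1 and Oca2 were undetected in all conditions, and 1 of 4 tested was higher in knockdown SNM. Neuronal-stage calls were made for 3 of 3, with higher values of Pmel (1.62) and Dct (at least 2.14-fold) and lower values of Kit (-1.18), which is not restricted to melanocytes. Of 12 sensory and autonomic neuron markers, 3 of 8 tested were lower and 1 higher in knockdown SNM, with Pou4f1 (-1.68), Phox2a (-1.15) and Tlx3 (-1.06) the lower ones. Those are factors that also act in the hindbrain and midbrain. Of those at the neuronal stage, 5 of 8 were lower, among them Isl1 (-2.81) and Phox2a (-1.56), and 1 was higher, Prph (1.76), which encodes an intermediate filament of peripheral neurons. Dbh, the enzyme that makes noradrenaline, was detected in no condition. The labels name the cells by stage of a dopaminergic protocol and give no crest or Schwann cell.

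Each detected member was set beside the probe most like it over the 18 arrays, a description over 6 RNA pools whose arrays share a pool. Pmp22 followed Col3a1, a fibrillar collagen, with a Pearson r of 0.997, and AW146242 (0.997) and Marcks (0.996) equally. Tfap2a followed Cbln2 (0.983), Mmp3 (0.981) and Fscn1 (0.975). Tfap2b followed P2ry5 and Prkra (both 0.975), and C330050A14Rik (0.971). Ngfr followed Cmtm7 (0.986), Luzp1 (0.985) and Pml (0.983). The closest probes were less like Egr2, with Pcbp2 at 0.945, 1700037H04Rik at 0.937 and Slc43a1 at 0.933, and like Pou3f1, with Gm784 at 0.962, Cytip at 0.959 and 9930021D14Rik at 0.947. No member was among the 3 closest to another.

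By condition, the levels fell into an order for each gene. Tfap2b was highest in control SNM, then control neuronal, knockdown SNM and knockdown neuronal cells, each apart from the next, and the ES conditions overlapped. Egr2 was highest in control SNM and lowest in knockdown SNM, with overlap only between the ES conditions. Pou3f1 was highest in control SNM, and the 5 other conditions overlapped each with its neighbour. Tfap2a was highest in knockdown neuronal cells and control SNM, which overlapped, and lowest in knockdown ES cells. Ngfr was highest in the overlapping ES conditions and lowest in knockdown SNM and knockdown neuronal cells, which overlapped. Pmp22 was highest in control neuronal cells and lowest in knockdown ES cells, with overlap only between the SNM conditions.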

How the data were processed

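Illumina MouseWG-6 v2 BeadChips were hybridized with RNA of 6 conditions, 3 arrays each. RNA of replicate cultures had been pooled by the authors, so a condition is 1 pool. The deposited table holds, the signal intensity of each probe on every array, with no background subtraction or normalization, and the detection p-value deposited beside it. A second table gave only the annotation of the probes, and 72 columns of per-sample values in it, named by chip position, were not used. The authors scanned and quantified the chips with Illumina's BeadArray software, and its settings are not given in the sources used here. Array numbers were read from the titles.

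The members and the gene lists were chosen with earlier results of these data known. Symbols were updated through RefSeq (GRCm38.p6), where 30630 of 45281 probes matched. The neqc function of limma 3.58.1, run under R 4.3.3, processed the signals (background from the detection p-values, offset of 16, quantile normalization, log2). A single model with 6 conditions was fitted with lmFit, contrasts.fit and eBayes, and p-values were adjusted by Benjamini-Hochberg over all probes tested. All tests are two-sided. The arrays detected between 18827 and 22202 probes at a detection p-value under 0.05, 23172 probes were detected on all arrays of at least 1 condition, and the number of arrays limits the precision. No arrays held identical values, and the lowest correlation between arrays of a condition was 0.989. Where a condition detected a probe on no array, the fold change is a lower bound against the lowest detected signal of each array or the probe's own signal where higher. Deviations of knockdown and control arrays of equal number were correlated across probes. For numbers 1, 2 and 3 the correlations were 0.486, 0.108 and 0.489 in SNM. They were 0.605, 0.0938 and 0.325 at the neuronal stage, and -0.0938, 0.0254 and 0.0959 in ES cells. The control array most like a knockdown array had its number, except for number 1 in ES cells and number 3 at the neuronal stage. The number as a block was an alternative. The genes named are Hprt1, the members, up to 2 called genes each way with the largest change per list and stage, and the 3 probes most like each member. Any other list gene was named after its values were seen. Promoter windows were read with python 3.11.15. The script was tested on simulated data. Alternatives were the background correction, scaling, offset, detection filter, fold limit, arrays in the fit, the methods' t-test, the mean over a gene's probes, and each array left out. Some genes of the lists are counted but not reported here by name.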

Additional observations from a re-analysis of the deposited data

Results flagged for a closer look

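The knockdown effect on 5 of the members was called as differing between stages by a test of the difference itself. From ES cells to SNM it moved by -2.18 (log2) for Tfap2b, -1.31 for Egr2, -0.94 for Pou3f1 and 0.71 for Pmp22. The second Pmp22 probe, dim in ES cells, gave -0.07 and was not called. Tfap2b was near background in ES cells and not tested there, so its value rests on the SNM difference of -2.41. From SNM to the neuronal stage the knockdown effect moved by 1.65 for Egr2, 1.45 for Pou3f1 and 1.21 for Tfap2a. For Egr2 and Pou3f1 both differences were called, in opposite directions. They share the SNM arrays.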

How the results depend on the processing

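Of 384 values of single members under an alternative, 362 kept their direction and their side of the threshold, 22 lost the call, none gained one and none reversed; of 156 counts, 140 stayed within 1.5 times. The calls of Tfap2b, Egr2 and Pou3f1 in SNM held in every alternative run. In ES cells the count of 1 member called (Pmp22) became 0 under quantile normalization without background correction, 75th percentile scaling, an offset of 50, a 2-fold limit, the methods' t-test after Benjamini-Hochberg (adjusted p = 0.0817) and the mean over probes. From SNM to the neuronal stage in knockdown cells, 3 became 0 under quantile normalization without background correction, 75th percentile scaling, an offset of 50 and a 2-fold limit. Neuronal-stage calls went from 3 to 1 (Tfap2b) under the 2-fold limit and under the mean over probes. The SNM and ES difference went from 4 to 2 under the 2-fold limit, and the ES to SNM step from 5 to 3 in each cell type under the mean over probes. Tfap2a lost its calls at SNM and at the neuronal stage under 5 of these settings, and also without knockdown SNM replicate 2 (-0.57) and without control neuronal replicate 1 (0.56), control neuronal replicate 3 (0.58) or knockdown neuronal replicate 3 (0.56). Ngfr at the neuronal stage lost its call under the mean over probes (-0.28), where 2 undetected probes enter, and under the 2-fold limit. With 1 array left out in turn, the count for the neuronal and SNM difference lay between 3 and 5, the latter without knockdown neuronal replicate 1. The replicate block kept the counts of 1, 4 and 3 members called at the ES, SNM and neuronal stages and changed no call. Foxd3 and Erbb3 cannot be judged at their signal over background. The cause of the lost calls was not tested, apart from limits on the fold that remove small changes by construction.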

Other observations

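Markers of surface ectoderm and epidermis, the tissue on the other side of the neural crest border, were higher in knockdown SNM for 5 of 9 tested and lower for none. Krt14 (3.42), Krt8 (2.89), Krt18 (1.37) and Dsp (1.22), which encode keratins and a desmosome protein, led them, and their median was 0.62, or 0.32 with undetected groups at their bound. Grhl3 (-0.22) and Sfn (-0.41) differed the other way without being called, and Epcam was detected in no condition. The summed signal of the list was 1100 to 1260 in control and 3470 to 3730 in knockdown SNM. That difference lies mostly in Krt8, with means of 8.07 and 10.97 on the log2 scale. These markers were not low in ES cells, where the list summed to 4730 to 4820 in control and 4010 to 4240 in knockdown arrays. Krt8 had a mean of 10.74 in control ES cells. At the neuronal stage none of 7 was higher and 1 was lower, Trp63, which was undetected in the knockdown, by at least 1.52-fold. Markers of pluripotent cells were lower in the knockdown for 6 of 10 in SNM and for 9 of 10 at the neuronal stage. Skeletal muscle markers, which were lower at the neuronal stage, were higher for 7 of 9 tested in knockdown SNM.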
